A study of Mus musculus with 3 samples.

Results

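The testis-specific serine kinases are a small family of protein kinases encoded in the mouse by Tssk1 to Tssk6. All 6 genes were taken by name from the deposited expression tables, through the gene identifier paired with each symbol in the GENCODE M21 annotation, out of 36809 identifiers that the 3 tables share. Of these, 20147 are protein-coding. The study compared 3 organs of male C57BL/6 mice aged 11 weeks: the brain, the liver and the whole testis. From each organ 1 strand-specific library of polyadenylated RNA was sequenced, and the labels give no treatment, no altered allele and no number of animals behind a library. Each library is a whole organ and mixes all of its cell types.

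Tssk kinases are made in the haploid cells of spermatogenesis, the spermatids, which condense their chromatin, build an acrosome and a flagellum and shed most of their cytoplasm. They belong to the branch of the kinome that also holds AMPK and its relatives. In mice, loss of Tssk1 together with Tssk2, or of Tssk6 alone, makes males infertile, and loss of Tssk4 lowers sperm motility.

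Levels are given as FPKM, fragments per kilobase of transcript scaled to the number of mapped fragments, which can be compared between genes because they are per length. Each value is followed in parentheses by the lower and upper confidence bound in the authors' tables, which covers the estimation error within 1 library. With 1 library per organ the spread between animals is unknown, so every difference is described by its size and no p-value is given. Calls of higher or lower asked for a change of at least 4-fold on log2(FPKM + 1) and for intervals of the authors that stay apart.

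The Tssk genes were among the abundant messages of the testis library and close to 0 in both other organs. In testis the highest of them was Tssk2, a kinase of spermatids that phosphorylates the substrate protein Tsks, at 233 FPKM (229.8 to 236). Its neighbour and closest relative Tssk1 was at 230.1 FPKM (227 to 233), and these 2 intervals overlap, so the data do not order the pair. Tssk6, a kinase needed for chromatin condensation in spermatids and for sperm to fuse with the egg, followed at 178 FPKM (175 to 180.4).

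The other 3 members lay lower. Tssk3, which the kinase Pdpk1 can activate, was at 82.3 FPKM (80.3 to 84.3). Tssk4, which phosphorylates the outer dense fibre protein Odf2 of the sperm tail, was at 72.4 FPKM (70.4 to 74.4). Tssk5 was the lowest at 12.7 FPKM (12.0 to 13.4), and apart from Tssk1 and Tssk2 no neighbours in this order had overlapping intervals. The highest member stood 18.4 times above the lowest.

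Among the 20147 protein-coding genes of the testis library, Tssk2 ranked 423, Tssk1 433, Tssk6 600, Tssk3 1324, Tssk4 1496 and Tssk5 4998. The median of the 6 genes was 129.9 FPKM, against 2.0 FPKM over all protein-coding genes. Together they summed to 808 FPKM, or 0.142% of the protein-coding FPKM in testis, and Tssk1, Tssk2 and Tssk6 gave 79.3% of that sum. In bulk tissue, fewer cells of a type and less RNA per cell cannot be told apart, so these levels are averages over all cells of the organ.

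**Figure D1:**
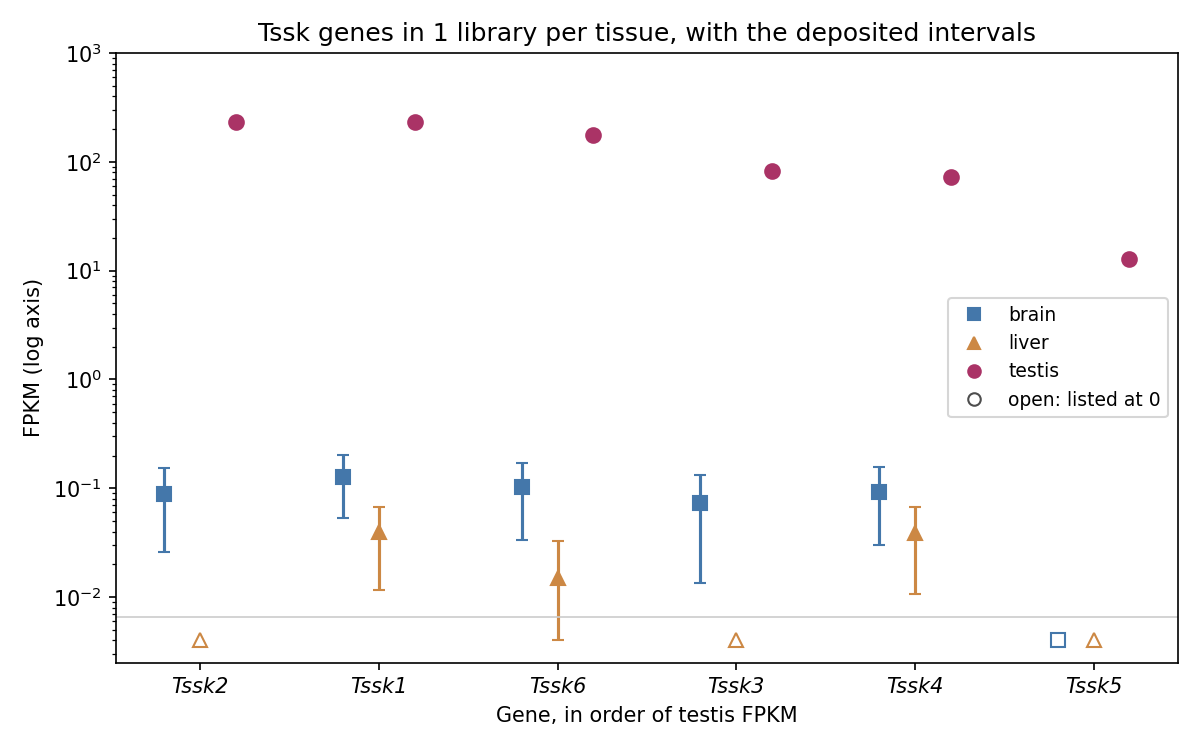
FPKM of the 6 Tssk genes (log axis) in the brain, liver and testis libraries, 1 library each, with bars for the deposited confidence bounds, which are smaller than the symbols in testis. Testis points run from 12.7 to 233 FPKM, and all brain and liver points lie at 0.127 FPKM or below. Open symbols under the grey line are listed at 0, and the lower bound of Tssk6 in liver is also 0.

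In brain, 5 of the 6 genes had a value above 0, each far below the detection limit of 1 FPKM used here. Tssk1 was at 0.127 FPKM (0.0537 to 0.20), Tssk6 at 0.103 (0.0337 to 0.172), Tssk4 at 0.0929 (0.0300 to 0.156), Tssk2 at 0.0891 (0.0261 to 0.152) and Tssk3 at 0.0735 (0.0135 to 0.134). These 5 intervals all overlap one another, so no order of the genes can be read in brain. Tssk5 was listed at 0.

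In liver, Tssk1 was at 0.0396 FPKM (0.0116 to 0.0675), Tssk4 at 0.0386 (0.0106 to 0.0666) and Tssk6 at 0.01485 (0 to 0.0328). Tssk2, Tssk3 and Tssk5 were listed at 0. The family summed to 0.486 FPKM in brain and 0.0930 FPKM in liver, against 808 FPKM in testis.

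The width of an interval shows how few fragments these low values rest on. If the bounds lie 2 standard deviations from the estimate, Tssk1 rested on 12 fragments in brain, Tssk2 on 8.0 and Tssk3 on 6.0, and in liver Tssk1 rested on 8.0 and Tssk6 on 2.72. In testis the implied fragments ran from 1300 for Tssk5 to 22390 for Tssk1. For Tssk1, 1 fragment was worth 0.0106 FPKM in brain and 0.0103 in testis but 0.00494 in liver, so the liver library could register the lowest level.

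The low brain values were set beside marker genes of spermatids, the cells known to make Tssk kinases. The brain level of the Tssk genes was 0 to 0.128% of their testis level, with a median of 0.0566%. For 10 spermatid markers it was 0.0349 to 0.0940%, with a median of 0.0595%. The most abundant of these, the nuclear protein genes Tnp1, Prm2 and Tnp2, stood at 13.5, 9.56 and 3.24 FPKM in brain against 14339, 12924 and 4964 in testis. None of the 10 spermatid markers was listed at 0 in brain, and their sum there was 30.9 FPKM against 40523 in testis.

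Liver gave smaller shares. There the Tssk genes were at 0 to 0.0533% of their testis level, and the spermatid markers at 0 to 0.00209%, with 5 of 10 listed at 0 and a sum of 0.273 FPKM. For 8 markers of meiotic spermatocytes the brain level was 0.0577 to 3.88% of testis and the liver level 0 to 0.0528%, with 4 of 8 listed at 0 in liver. Ependymal cells, ciliated cells that line the brain ventricles, were represented by 5 markers at 1.42 to 6.27 FPKM in brain. The part of these cell types, or of material from another library, in the low Tssk values was not tested.

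**Figure D2:**
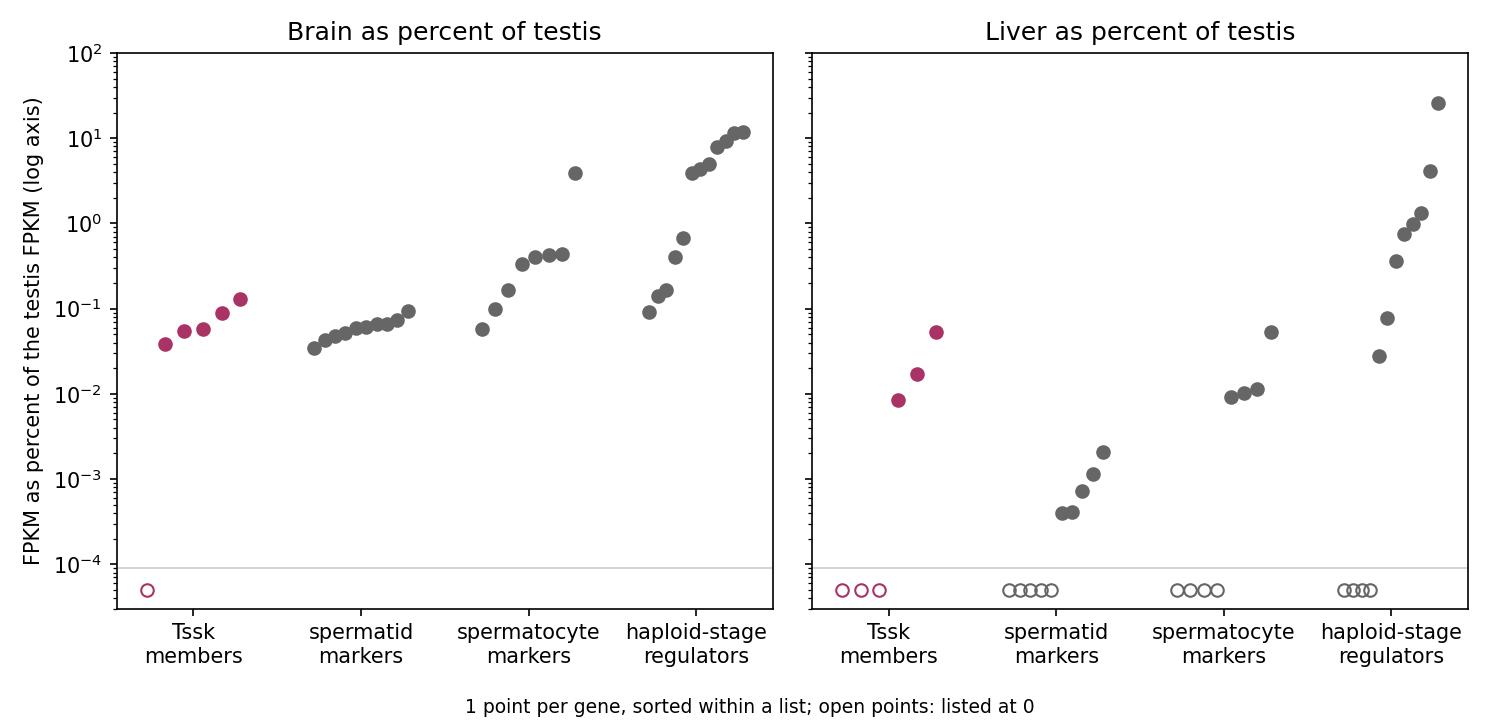
FPKM in brain (left) and liver (right) as a percent of the same gene's FPKM in testis (log axis), 1 point per gene. Shown are the 6 Tssk genes, 10 spermatid markers, 8 spermatocyte markers and 12 genes listed as regulators of the haploid stage. In brain the 5 Tssk points above 0 lie at or below 0.128% and the spermatid markers between 0.0349 and 0.0940%, and open points under the grey line are listed at 0.

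Testis was then compared with brain. All 6 Tssk genes were called higher in testis, and no member was lower. The log2 differences were 7.75 for Tssk2, 7.68 for Tssk1, 7.34 for Tssk6, 6.28 for Tssk3, 6.07 for Tssk4 and 3.78 for Tssk5, with a median of 6.81 against 0 over all protein-coding genes. The same rule called 14.2% of protein-coding genes higher in testis than brain and 10.4% lower, and 11% and 7.19% of all 36809 genes.

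The added 1 FPKM holds down these differences, because the brain values are far smaller than 1. As a plain ratio of FPKM, Tssk1 was 1811 times higher in testis than in brain, with 1133 and 4343 as the ratios of the nearest and the farthest bounds. The ratio was 2614 for Tssk2 (1510 to 9045), 1723 for Tssk6 (1013 to 5357), 1119 for Tssk3 (601 to 6246) and 779.7 for Tssk4 (452 to 2481). These ranges overlap, so the data do not rank the 5 genes by ratio. No ratio is given for Tssk5, which is listed at 0 in brain.

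Testis against liver gave the same count. All 6 genes were called higher, with log2 differences of 7.87 for Tssk2, 7.80 for Tssk1, 7.46 for Tssk6, 6.38 for Tssk3, 6.14 for Tssk4 and 3.78 for Tssk5. Their median was 6.92, against 0.23 over all protein-coding genes, of which 20.2% were called higher and 5.96% lower in testis than liver. Over all genes the shares were 15.2% and 3.82%. Both comparisons use the same testis library and are not independent of each other. As plain ratios, Tssk1 was 5817 times higher in testis than liver (3362 to 20126) and Tssk4 1876 times (1056 to 7029). For Tssk6 the ratio was 11959, or 5320 between the nearest bounds, with no upper limit because the liver bound reaches 0 and the liver value rests on 2.72 implied fragments.

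Between the somatic organs no member was called in either direction. The brain minus liver differences of log2(FPKM + 1) lay between 0 for Tssk5 and 0.12 for Tssk2, while 13.7% of protein-coding genes were called higher and 4.55% lower in brain than liver (9.15% and 2.79% of all genes). The Tssk1 intervals of brain and liver overlap, as do those of Tssk4, and those of Tssk6 meet almost end to end, with a lower bound of 0.0337 FPKM in brain and an upper bound of 0.0328 in liver. Tssk2 and Tssk3 had brain intervals above 0, from 0.0261 and 0.0135 FPKM, and were listed at 0 in liver. With 0.01 FPKM added in place of 1, Tssk2, Tssk3 and Tssk6 were called higher in brain than liver, 3 of the 6. For Tssk2 and Tssk3 both liver bounds are 0, so any brain lower bound above 0 met the condition on intervals. Bounds of 0 do not measure the error of a gene listed at 0.

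Detection followed from these levels. All 6 genes reached 1 FPKM in testis and 0 of 6 did so in brain or liver. Of all protein-coding genes 57.9% reached it in testis, 58.5% in brain and 43.9% in liver. All 6 also met a rule for restriction to testis, at least 5 FPKM there and under 0.5 FPKM in both other organs, which 6.11% of protein-coding genes and 5.53% of all genes met. On the tissue-specificity index tau over the 3 libraries, which is 1 for a gene seen in a single organ, the members lay between 0.985 for Tssk4 and 1 for Tssk5. All 6 reached 0.9 in favour of testis, as did 13.9% of protein-coding genes.

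The genes differ in structure and place. In the coordinates of the tables, on the mm9 build, Tssk1 (ENSMUSG00000041566) spans chr16:17894296-17895744 and Tssk2 (ENSMUSG00000045521) chr16:17898730-17900116. Tssk3 (ENSMUSG00000000411) lies at chr4:129166258-129168266, Tssk4 (ENSMUSG00000007591) at chr14:56269019-56271376, Tssk5 (ENSMUSG00000060794) at chr15:76202388-76205368 and Tssk6 (ENSMUSG00000047654) at chr8:72426083-72427415. Gene structure was read from the M21 transcript with the longest coding sequence, 1 of 6 coding transcripts for Tssk4 and the only 1 for each other member. On that transcript Tssk1, Tssk2 and Tssk6 each consist of 1 exon, whereas Tssk3 has 2, Tssk4 has 4 and Tssk5 has 8. Their coding sequences encode 365 amino acids for Tssk1, 358 for Tssk2, 268 for Tssk3, 338 for Tssk4, 372 for Tssk5 and 273 for Tssk6.

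Tssk1 and Tssk2 are the near copies of the family. Their coding sequences were 78.3% identical in a global alignment, whereas the other 14 pairs of members were between 50.7% and 59.3% identical. The best local alignment gave 85.7% over 877 columns for Tssk1 and Tssk2. For the other pairs it gave 66.3% to 80%, over stretches of only 40 to 304 columns. Reads of 76 bases could still tell them apart over most of their length. Of the 76-base windows of each transcript, 73 of 3625 in Tssk1 and 73 of 1313 in Tssk2 also occur in the other gene, so the split of reads between the pair is uncertain there. The Tssk1 transcript of M21 has 3700 bases and is longer than the 1449 bp span of the gene in the tables. For Tssk6, 300 of 1260 windows are shared with Ndufa13 on the opposite strand, and for Tssk3, Tssk4 and Tssk5 no window is shared with another gene.

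The start regions of Tssk1 and Tssk2 are shown because the pair is the most alike in sequence and level and shares a word that the promoters of Tssk3, Tssk4 and Tssk6 lack, and that of Tssk4 as a member without it. They are reference sequences from RefSeq on GRCm38.p6, written 5′ to 3′ on the gene's own strand, here the plus strand, and end at the base before the annotated start. Capitals mark TGACTTCA or its reverse complement TGAAGTCA, an 8-base word that resembles the cyclic AMP response element.
Tssk1 chr16:17894146-17894202: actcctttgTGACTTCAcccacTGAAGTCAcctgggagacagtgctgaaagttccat
Tssk2 chr16:17898567-17898636: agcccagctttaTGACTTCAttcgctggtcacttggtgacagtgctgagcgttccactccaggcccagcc
Tssk4 chr14:55650114-55650183: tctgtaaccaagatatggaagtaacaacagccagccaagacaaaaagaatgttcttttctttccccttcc

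Counted back from the start, with the base before it as -1, Tssk1 holds the word at -48 and, in reverse, at -35, and Tssk2 holds it at -58. The word was chosen after the Tssk1 and Tssk2 sequences had been read, so its presence there describes the pair and supports nothing. In the 250 bases before the start it occurs on either strand in 1.32% of 27025 RefSeq promoters and in 14 of 949 promoters (1.48%) of other protein-coding genes restricted to testis. Around it the 2 promoters align from -53 to -2 in Tssk1 and from -63 to -15 in Tssk2, with 41 of 52 aligned columns identical (78.8%).

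RefSeq promoters were matched for 5 of the 6 genes, all but Tssk5. Other words were searched on both strands of the same 250 bases. The full cyclic AMP response element TGACGTCA was in 0 of the 5, against 1.62% of all promoters, and its core TGACG was in Tssk6 only, against 17.9%. GGGCGG, the GC box, was in Tssk6 only (32.9% of promoters), CCAAT was in Tssk3 and Tssk4 (34.5%), and TATAAA (13.0%) and GTTGCC, part of the X-box bound by Rfx proteins (10.5%), were in none. TGACG is also part of TGACGTCA, and no other of these words contains another. The number of CpG pairs in these 250 bases was 2 in Tssk1, 4 in Tssk2, 9 in Tssk3, 1 in Tssk4 and 13 in Tssk6, against a median of 11 over protein-coding genes. These windows also hold annotated exon sequence, of Dgcr2 for Tssk1 and Tssk2, of Tssk3 itself for Tssk3 and of Ndufa13 for Tssk6, and only that of Tssk4 holds none, so the words and CpG counts partly describe exons. A match here is a run of letters and not a measured binding site.

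For each member, any overlapping gene and the nearest gene on each side were examined. How far a testis pattern reaches along the chromosome was not tested. In the mm9 coordinates Tssk1 and Tssk2 are direct neighbours, 2985 bp apart on the same strand. The Tssk1 transcript of M21 has 3700 bases against 1449 bp here, so the gap is smaller in that annotation. M21 also places Dgcr2 exon sequence in the 250 bases before each of the 2 starts. The outer neighbours of the pair in mm9 lay far below it in testis. Dgcr2 stood at 8.49, 4.63 and 14.7 FPKM in brain, liver and testis, and Ess2, which lies 687 bp beyond Tssk2, at 3.58, 0.587 and 6.16. Dgcr2 was not called in testis against either organ, and Ess2 was called higher in testis than liver but not than brain.

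Tssk3 has a close neighbour with a like pattern. Fam229a lies 167 bp away on the opposite strand, so that both genes start in the gap and run apart, and stood at 0.188 FPKM in brain, was listed at 0 in liver and reached 234.8 FPKM in testis. On the other side of Tssk3, Bsdc1 was at 9.43, 10.3 and 27.5 FPKM in brain, liver and testis. Hgh1, 554 bp from Tssk5, was called higher in testis (2.64, 0.925 and 15.0 FPKM in brain, liver and testis), while Mroh1 on its far side was not called (8.08, 3.61 and 14.3).

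Around Tssk4, Tm9sf1 was at 9.33, 18.9 and 6.03 FPKM in brain, liver and testis, and Mdp1 at 14.0, 3.38 and 2.26, lower in testis than brain. Tssk6 overlaps the start of Ndufa13, a subunit gene of respiratory complex I on the opposite strand. Ndufa13 stood at 57.4, 40.0 and 40.5 FPKM in brain, liver and testis. The libraries keep strand, but whether the counting used it is not stated. Tssk6 was at 0.103 FPKM in the brain library in which Ndufa13 was at 57.4. Of the next genes, Yjefn3 was at 5.26, 0.109 and 0.177 FPKM in brain, liver and testis, and Gatad2a at 3.04, 3.12 and 10.4.

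**Figure D3:**
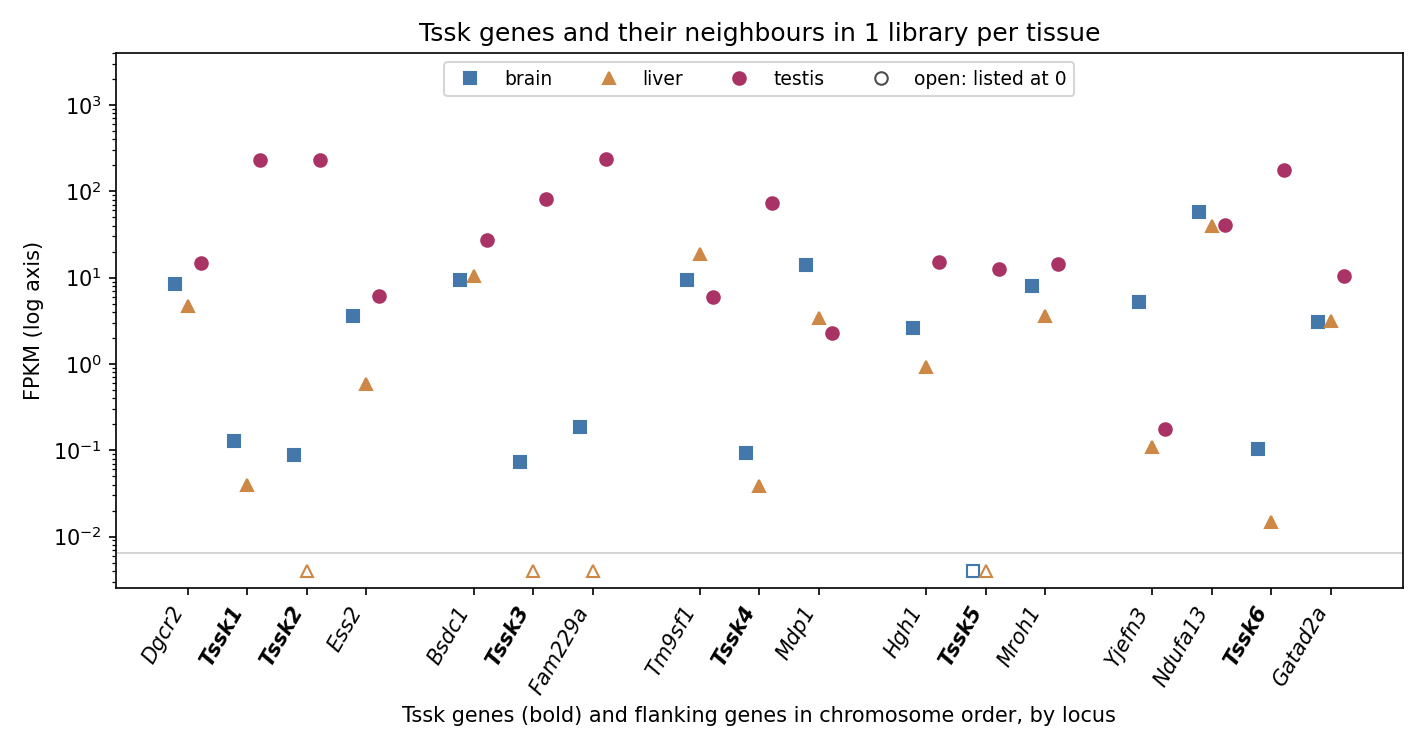
FPKM (log axis) of each Tssk gene (bold) and the genes beside it, in chromosome order within 5 loci, in the brain, liver and testis libraries. Fam229a, beside Tssk3, has testis far above both other organs (234.8 against 0.188 FPKM in brain). Hgh1, beside Tssk5, was also called higher in testis than in both (15.0 against 2.64 FPKM in brain). Open symbols under the grey line are listed at 0.

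Proteins known to work with the kinases were taken as a list of 15 genes. In testis 5 of them were called higher than in brain, 3 lower and 7 were not called, with a median log2 difference of 2.64. Against liver 6 were higher, 2 lower and 7 not called, with a median of 2.94. Those higher against both organs were the substrates Tsks, Odf2 and Spag16, the chaperone Hspa2 and the phosphatase Ppp1cc, and those lower against both were the general chaperones Hsp90ab1 and Hspa8. Over all protein-coding genes 14.2% were called higher and 10.4% lower in testis than brain, and 20.2% and 5.96% against liver. After scaling by the FPKM sum of a library, 8 partners were higher in testis than brain and 0 lower. Without the 100 most abundant genes in that sum, 7 were higher and 1 lower. With the median ratio, the protein-coding sum and features of 200 bp or more, 5 were higher and 3 lower.

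Among the substrates, Tsks, which Tssk1 and Tssk2 phosphorylate, was at 217 FPKM in testis, close to the level of the 2 kinases, and at 0.266 in brain and 0.0267 in liver. Odf2, the tail protein phosphorylated by Tssk4, was at 12.6, 2.26 and 3056 FPKM in brain, liver and testis. Spag16, an axoneme protein and substrate of Tssk2, was at 0.458 FPKM in brain, listed at 0 in liver and at 74.2 in testis. All 3 thus stood far higher in testis, from a brain level that ranged from near 0 for Tsks to 12.6 FPKM for Odf2.

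H2afx, the histone variant whose phosphorylation depends on Tssk6 in spermatids, was at 9.83, 3.39 and 32.6 FPKM in brain, liver and testis, and was called higher only against liver. Creb1, a transcription factor that members of the family can phosphorylate, stood at 2.97 FPKM in testis, 17.9 in brain and 6.70 for liver, and was called lower against brain only. Its germ cell relative Crem was listed at 359 FPKM for testis, 93.8 for liver and 33.4 for brain, but its estimates failed in all 3 libraries, with intervals down to 0, and it was not called.

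Tssk6 becomes active through the chaperone Hsp90 and the testis co-chaperone Tsacc. Tsacc was listed at 178.5 FPKM for testis, 0.749 for brain and 0.450 for liver, but the testis estimate had failed, with a lower bound of 0, and it was not called. Hsp90aa1, at 653, 274 and 1025 FPKM in brain, liver and testis, was not called. Hsp90ab1 was at 1169, 933 and 213 and Hspa8 at 1380, 1039 and 146, and both were called lower in testis than in both other organs. Hspa2, an Hsp70 chaperone of male germ cells, went the other way, at 432 FPKM in testis against 13.3 in brain and 0.512 for liver. Cdc37, which brings kinases to Hsp90, was at 35.2, 18.0 and 20.9 FPKM and was not called.

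Ppp1cc, the phosphatase gene whose testis isoform binds the Tssk1 and Tsks complex, stood at 299.8 FPKM for testis, with 38.8 for brain and 10.6 for liver, and was called higher against both. Of the upstream kinases, Stk11, which activates AMPK relatives, was at 51.0, 36.6 and 96.1 FPKM and was not called. Pdpk1, which can activate Tssk3, was listed at 8.99, 2.89 and 61.3 FPKM with failed estimates in all 3 libraries.

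The kinases related to AMPK, the wider family to which the Tssk genes belong, did not share their pattern of levels. Of 16 genes measured, 0 were called higher in testis than brain, 4 were lower and 12 not called, with a median log2 difference of -0.11. Over all protein-coding genes 14.2% were higher and 10.4% lower. The direction in the AMPK-related kinases depended on the scaling. After scaling by the FPKM sum of a library 7 were higher in testis than brain and 0 lower. Without the 100 most abundant genes in that sum, 1 was higher and 0 lower. The other scalings kept the direction, with 0 higher in each. They gave 3 lower with the median ratio, 6 with the protein-coding sum and 5 with features of 200 bp or more. Against liver 4 were higher, 1 lower and 11 not called, with a median of 1.05. The shares over all protein-coding genes were 20.2% higher and 5.96% lower, so these counts are near the background. The 4 higher than liver became 1 with median-ratio scaling and 2 with a sum that leaves out the top 100 genes. They numbered 7 with a pseudocount of 0.01, 8 at 2-fold and 1 at 8-fold. The highest in testis were Mark2 at 38.8 FPKM, Sik3 at 24.8 and Brsk1 at 12.3, all below Tssk4 and the first 2 above Tssk5. Those lower in testis than brain were Nuak1 (6.58 FPKM in brain, 0.0786 in testis), Mark1 (11.5 and 0.658) and the neuronal kinases Brsk2 (16.4 and 2.97) and Brsk1 (52.5 and 12.3). Prkaa2, a catalytic subunit of AMPK, was lower in testis than liver, at 0.192 against 5.52 FPKM.

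A list of 10 kinases from other branches, known from male germ cells, was compared in the same way. Of these, 7 were called higher in testis than brain and 3 not called, with a median of 3.79. Against liver 9 were higher, with a median of 4.92. Over all protein-coding genes the shares called higher were 14.2% against brain and 20.2% against liver. Stk33 reached 216 FPKM in testis, with brain at 0.763 and liver at 0.00337, a level between those of Tssk6 and Tssk1. Nek2, a centrosomal kinase, was at 62.0 FPKM in testis and Stk31 at 46.9, both below Tssk4.

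A list of 12 genes was taken as regulators of the haploid stage, and whether each acts at that stage was not tested. Of these, 9 were called higher in testis against each organ and 3 were not called. The median log2 differences were 4.08 against brain and 5.39 against liver. Over all protein-coding genes 14.2% were called higher in testis than brain and 20.2% than liver. The 3 uncalled genes, Crem, Kif17 and Tcfl5, all had failed testis estimates. They were listed at 359, 102 and 159 FPKM in testis. Tbpl1, a relative of the TATA-binding protein that spermatids need, reached 198 FPKM in testis, with brain at 15.6 and liver at 2.65.

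**Figure D4:**
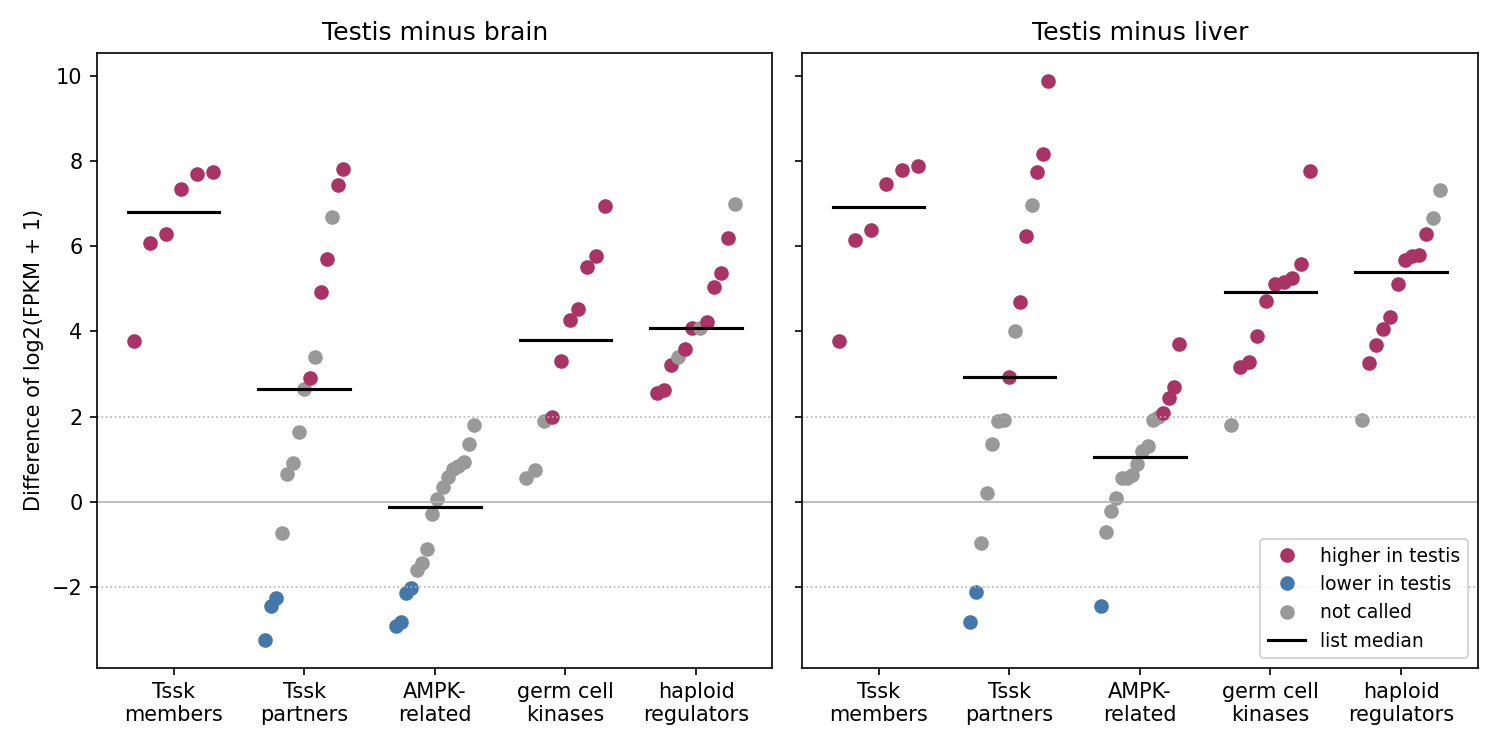
Differences of log2(FPKM + 1), testis minus brain (left) and testis minus liver (right), 1 point per gene and 1 library per organ. Shown are the 6 Tssk genes, 15 partner genes, 16 AMPK-related kinases, 10 other germ cell kinases and 12 genes listed as haploid-stage regulators. Black lines are list medians and dotted lines mark 4-fold. The Tssk median is 6.81 against brain and that of the AMPK-related kinases is -0.11.

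Genes with the most similar profile were found for each member as the 3 protein-coding genes at the smallest Euclidean distance of log2(FPKM + 1) over the 3 libraries. For Tssk1 these were Spata20 (235 FPKM in testis), Ddi1 (230.03) and Zpbp2 (231), an acrosome protein gene. Tssk2 shared Ddi1 and Spata20 and had Tex48 (238) as the third. Tssk6 lay nearest to 1700013G24Rik (180.1), Fam24a (174) and Actl7a (171), an actin relative of the sperm head.

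For Tssk3 the nearest were Cyct (82.9), the testis form of cytochrome c, 4933416C03Rik (81.0) and Dydc1 (84.4). For Tssk4 they were Theg (73.5), Cdca2 (72.5) and Spesp1 (73.7), and for Tssk5 Fam3b (12.6), Atp6v1fnb (12.8) and Zdhhc11 (12.6). The largest distance among these was 0.0741, and with 3 libraries such a match says little more than that the testis levels are alike.

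The libraries carried the marker genes of their organs. All 5 neuron and 5 glia markers were called lower in testis than brain, and all 5 hepatocyte markers lower in testis than liver, as were 2 of 4 markers of other liver cells. In testis all 10 spermatid and 8 spermatocyte markers were called higher than in each other organ. For the other cells of the testis this was so of 4 of 5 Leydig markers against both organs, of 2 of 6 spermatogonium markers against both, with 1 lower, and of 2 of 5 Sertoli markers against brain and 1 of 5 against liver. Of the ependymal markers 4 of 5 were called higher in testis than brain. Over all protein-coding genes 14.2% were called higher in testis than brain and 20.2% than liver. The shares called lower in testis were 10.4% against brain and 5.96% against liver. Summed over genes, the implied fragments came to 31.8 M for brain, 86.4 M for liver and 40.9 M for testis.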

How the data were processed

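For each library the authors deposited 1 table, which per its header holds the FPKM of every gene with 2 confidence bounds and a status for the estimate. Cufflinks 2.0.0, Bowtie 0.12.5 and TopHat 1.4.0 are named in the submitters' processing notes, with mm9 as the build, and per the labels' protocols the strand-specific libraries were read for 76 cycles, single-end, in 3 lanes each. Neither the gene annotation behind the tables nor the level of the bounds is given in the sources used here. The tables hold no counts. Implied fragments were computed as the square of 2 times FPKM over the upper half-width of the interval.

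FPKM values were used as deposited. Values of 12 identifiers listed at more than 1 locus were summed. GENCODE M21 gave symbols, gene classes and gene models by identifier only, and 31837 of 36809 identifiers had a symbol. Table starts were raised by 1, after which 37 of 38 mitochondrial genes had the reference coordinates. Because a value of exactly 0 may come from an estimate that failed, such a gene is said to be listed at 0. The estimates of all 6 Tssk genes were marked OK in every library, those listed at 0 included. Differences were taken on log2(FPKM + 1), which understates those of low genes. The calls were tested on simulated data, on genes above 5 FPKM with 8-fold changes. That setting does not cover values as low as those of the Tssk genes in brain and liver. RefSeq promoters and transcript alignments were read with Python 3.11.15, pandas 2.3.3, numpy 2.4.6 and Biopython 1.88.

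The members and the gene lists, 119 entries of which 117 matched, were chosen with earlier results of these data known. Nim1k and Rhox5 did not match. Named genes were all members and partners, the 3 nearest profiles and the flanking genes. Of the other kinase and regulator lists and the spermatid markers, the 3 highest in testis were named. So were up to 3 called lower there than in brain and up to 3 than in liver. Kif17 is named as an uncalled gene. Brsk1 is under both parts of that rule, and the remaining marker lists are given by counts. Alternatives were other pseudocounts, scalings, fold and FPKM minimums, no use of intervals, estimates marked OK only, a filter at 1 FPKM and a tau of 0.9.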

Additional observations from a re-analysis of the deposited data

How the results depend on the processing

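With 1 library per organ no replicate could be left out and no difference has a replicate check. No paired analysis was possible because each organ has 1 library. Of 297 counts under an alternative, 274 stayed within 1.5 times the reported count and 23 moved. Counts were not graded for a reversal of direction. With the FPKM sum, the AMPK-related kinases went from 0 higher and 4 lower than brain to 7 higher and 0 lower. With the median ratio they were 0 higher and 3 lower, and with the protein-coding sum 0 higher and 6 lower. All 6 Tssk genes were higher in testis than brain and than liver, and restricted to testis, under every alternative run. Many of these could only loosen the calls or drop no Tssk gene. These were smaller pseudocounts, 2-fold, no intervals, minimums of 0.5 and 2 FPKM in place of 5, estimates marked OK and the 1 FPKM filter. The limit of 0.5 FPKM in brain and liver was not varied. With a pseudocount of 0.01, 3 Tssk genes (Tssk2, Tssk3 and Tssk6) were higher in brain than liver, in place of 0. The testis minus brain difference of log2 FPKM ranged from 7.58 to 10.7 for Tssk1 and from 3.78 to 10.3 for Tssk5, highest with the pseudocount of 0.01.

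Scaling shifted testis minus brain by 2.79 (log2) with the FPKM sum, 1.14 with that sum without the 100 most abundant genes, 0.07 with the median ratio, -0.72 with the protein-coding sum and -0.55 with features of 200 bp or more. The shifts of testis minus liver were -0.62, -0.93, -1.08, 0.11 and 0.17. Partners higher than brain numbered 8 with the FPKM sum and 8 without the intervals. Partners lower than brain numbered 0 with the FPKM sum, 1 without the top 100 and 1 at 8-fold, and lower than liver 1 with features of 200 bp or more and 0 at 8-fold. AMPK-related kinases higher than brain numbered 1 and 2 with pseudocounts of 0.1 and 0.01, 7 with the FPKM sum, 1 without the top 100 and 2 at 2-fold, and lower than brain 0, 0, 7 and 0 with the FPKM sum, without the top 100, at 2-fold and at 8-fold. Higher than liver they numbered 7 with a pseudocount of 0.01, 1 with the median ratio, 2 without the top 100, 8 at 2-fold and 1 at 8-fold, and lower than liver 0 at 8-fold. The cause was not tested beyond what each alternative changes by construction. Protein identity was not run. Coding sequences stood in, and local alignment gave 85.7% for Tssk1 and Tssk2 and 66.3% to 80% for the other pairs.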

Other observations

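Members with more exons had lower levels in testis. The 3 members with 1 exon were the highest, at 178 FPKM for Tssk6, 230.1 for Tssk1 and 233 for Tssk2. Tssk3 with 2 exons followed at 82.3, Tssk4 with 4 at 72.4 and Tssk5 with 8 at 12.7 FPKM. The exon number of Tssk4 is that of 1 of its 6 coding transcripts. This order was noticed after the values were seen, rests on 6 related genes in 1 library, and was not tested.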
